A study of Mus musculus with 36 samples.

Results

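The proteasome is the protease complex that degrades proteins marked with ubiquitin. Its genes were read here in the dorsal vagal complex of mice, a brainstem region where the vagus nerve is served by its dorsal motor nucleus and by the solitary tract nucleus. The members are the genes whose symbol is Psm, 1 of the letters a to g and a number, without the 2 subunits of the immune form that are encoded beside the antigen transporter genes. The rule found 46 of the 24344 genes in the count table. They are 7 genes of the alpha ring and 7 of the beta ring of the core, 3 core variants of single tissues or of immune cells, 6 ATPases and 3 other subunits of the base of the cap, 8 subunits of the lid of the cap, 5 activators or inhibitors and 7 assembly chaperones. Of these, 45 passed the filter on low counts and were tested among 20108 genes, and Psmb11 did not.

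The 36 libraries were of polyA RNA from wild-type males and females of 3 inbred strains: the laboratory strain C57BL/6J, the wild-derived CAST/EiJ, and NZO/HlLtJ, which becomes obese and diabetic. A diet high in fat (44%) and sugar (HFHS) or its control (10% fat), each with fiber added, was eaten from week 6 of age until the tissue was taken at week 15. With 3 libraries for every combination of strain, diet and sex, a strain had 12 libraries and each diet within it 6. The labels tell libraries apart by strain, diet and sex only, so that p-values measure the spread between these libraries, whatever its source.

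In the core, 2 outer alpha rings gate the entry to a chamber formed by 2 inner beta rings, and 3 of the beta subunits cut peptide bonds. The cap recognises ubiquitin: the ATPases of its base unfold the substrate and push it into the core, and its lid removes the ubiquitin chain. Chaperones that are absent from the finished complex build the rings and the base, and activators such as the Psme proteins can take the place of the cap. Neurons depend on the complex for protein quality control and for the turnover of synaptic proteins, and the transcription factor Nfe2l1 is known to raise its genes together when its activity is blocked.

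Promoter sequence is shown for 5 members whose level differed between strains in the comparisons below: the chaperones Psmd9, Psmd5 and Psmg4, the catalytic beta subunit Psmb6 and the lid deubiquitinase Psmd14. Each line holds the 120 bases before the gene's RefSeq start (RefSeq, GRCm38.p6), 5′ to 3′ on the gene's strand, at chr5:123228070-123228189 (+) for Psmd9, chr2:34870963-34871082 (-) for Psmd5, chr13:34162844-34162963 (+) for Psmg4, chr11:70525237-70525356 (+) for Psmb6 and chr2:61711574-61711693 (+) for Psmd14. These windows hold 0 bases of gencode vM21 exons. Those of Psmd9 and Psmd5 lie inside the deposited gene models, which begin upstream of the RefSeq starts. Capitals mark every match to the 7 motifs named in the next paragraph.
Psmd9: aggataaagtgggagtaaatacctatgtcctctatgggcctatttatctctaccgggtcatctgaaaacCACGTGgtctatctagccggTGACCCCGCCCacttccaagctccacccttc
Psmd5: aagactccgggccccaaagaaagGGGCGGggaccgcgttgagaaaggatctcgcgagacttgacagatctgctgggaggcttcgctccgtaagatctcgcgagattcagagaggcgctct
Psmg4: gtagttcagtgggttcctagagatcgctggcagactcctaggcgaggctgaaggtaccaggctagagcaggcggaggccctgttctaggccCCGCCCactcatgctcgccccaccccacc
Psmb6: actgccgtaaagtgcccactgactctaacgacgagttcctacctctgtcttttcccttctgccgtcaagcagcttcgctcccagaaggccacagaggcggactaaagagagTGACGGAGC
Psmd14: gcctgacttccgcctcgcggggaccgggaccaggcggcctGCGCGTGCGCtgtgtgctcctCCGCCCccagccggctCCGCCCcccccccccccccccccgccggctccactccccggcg

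RefSeq promoters of 300 bases, from 250 before to 50 after the start, were matched for 38 of the 46 members and for 27024 genes in all. On either strand, the antioxidant response element core TGACNNNGC lay in 15.8% of the members' promoters (6 genes, Psmd9 and Psmb6 among them) and in 14% of all. In Psmd9 it overlaps the GC box behind it, and an E box precedes both. The GC box (GGGCGG) lay in 57.9% of the members' promoters and 38.2% of all, the ETS core (CCGGAAG) in 36.8% and 9.93%, and the nuclear respiratory factor site (GCGCA, any base, GCGC) in 18.4% and 5.19%. The interferon response element core (GAAA, any 2 bases, GAAA) was found in 13.2% of them and 3.99% of all, the E box (CACGTG) in 10.5% and 8.09%, and the CCAAT box in 34.2% and 41.1%. A match is a description of letters, not a bound site.

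Total counts per library ran from 22.03 to 49.61 M (M, 1e6). Hox genes, which mark the hindbrain behind its front border, summed to under 10 counts per M (CPM) in 3 libraries: CAST/EiJ male control 1 and 3 and NZO/HlLtJ male control 3. Hoxa7, Hoxb7, Hoxb8 and Hoxc6 were at 0 in these 3, and also in 6, 12, 9 and 1 of the other 33 libraries. Dbh, an enzyme of noradrenaline synthesis, was detected in every library, at 7.23 to 27.9 CPM in these 3 and 3.58 to 45.4 CPM in the others. The 12 cerebellar markers summed to 2585 and 2983 CPM in CAST/EiJ male control 1 and 3, and to 1184 CPM in NZO/HlLtJ male control 3. In C57BL/6J they reached at most 1677 CPM. Which region these libraries hold was not tested. The library NZO/HlLtJ male control 1 held 17460 CPM of pituitary hormone genes, and no other library exceeded 23.9 CPM. The count of members called in each strain comparison is given below also without these 4 libraries.

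Together the proteasome genes took between 0.261% and 0.319% of a library's counts. Levels can be compared between genes only per length, and are given next as CPM per kilobase of annotated exon (CPM/kb), over all 36 libraries; exons that only rare transcripts use lower this value. The ATPases of the base had the highest median of any role, at 36.5 CPM/kb, followed by the other base subunits at 32.2 and the beta ring at 29.4. The lid stood at 20.9 CPM/kb and the alpha ring at 19.0. Activators had a median of 7.81 CPM/kb and assembly chaperones of 5.95 CPM/kb.

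The ATPase Psmc5 had the highest level of all members, 132 ± 13.4 CPM/kb (SD, n = 36), and Psmc2 the lowest among the ATPases, 16.9. In the alpha ring, Psma6 was highest (57.3 CPM/kb) and Psma1 lowest (16.7). In the beta ring, Psmb5, which carries the chymotrypsin-like activity, was highest at 58.7 CPM/kb, and Psmb1, a subunit that does not cut, was lowest at 16.4. The scaffold subunit Psmd2 led the other base subunits with 56.1 CPM/kb, and its partner Psmd1 was last with 20.4. In the lid the values ran from 33.6 CPM/kb for Psmd12 to 11.1 for Psmd11. Of the activators and inhibitors, Psme3, a nuclear activator, was at 35.2 CPM/kb and the inhibitor Psmf1 at 5.28. Among the chaperones, Psmd10 (gankyrin) was highest with 8.73 CPM/kb and Psmd9 lowest with 2.38. The order of single genes can move with shared sequence: 54.1% of the 50-base stretches of Psmb5's transcripts and 49.96% of those of Psma5 also occur in transcripts of other genes, mostly processed pseudogenes.

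The core variants were far below the constitutive subunits. Psmb10, which replaces a catalytic beta subunit in the immune form, reached 8.01 CPM/kb. Psma8, the alpha subunit known from the testis, was at 0.131 CPM/kb, and Psmb11, the beta subunit of the thymus, at 0.0246 CPM/kb. Psmb11 totalled 33 counts over the 12 C57BL/6J libraries, 60 over those of CAST/EiJ and 65 over those of NZO/HlLtJ, with 0 to 13 counts in any library, and was not tested.

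**Figure D1:**
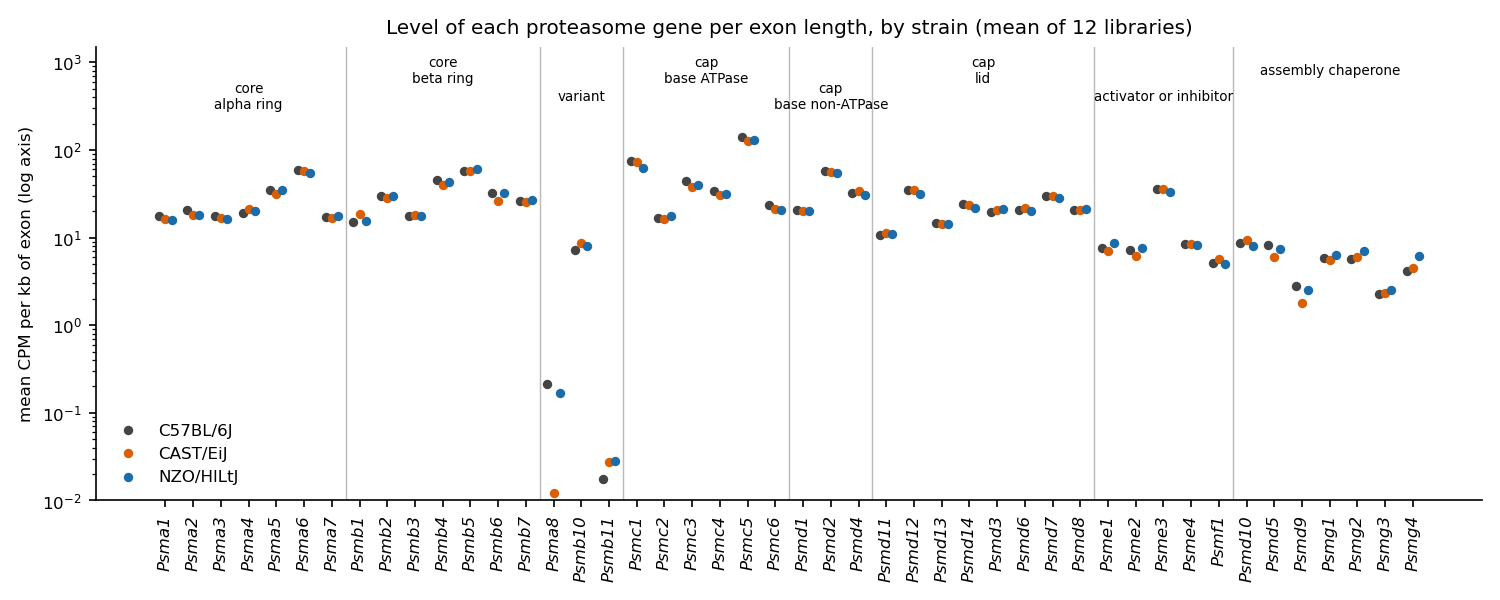
Mean CPM per kilobase of exon (log axis) of the 46 genes, 1 point for the 12 libraries of each strain, grouped by role. The 3 strains lie close together for nearly every gene except Psma8, whose CAST/EiJ point lies below the others, while the roles span from about the level of Psmc5 (132 CPM/kb over all libraries) down to the variants.

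The first comparison was between CAST/EiJ and C57BL/6J, with both diets and sexes averaged at equal weight. In CAST/EiJ the base chaperones Psmd9 and Psmd5 and the catalytic subunit Psmb6 were lower, and the beta subunit Psmb1 was higher. Of the 45 members tested, 18 were called (an adjusted p under 0.05 in edgeR's quasi-likelihood test, Benjamini-Hochberg over all 20108 genes), which is 40% of them, where 52.2% of all genes were called. By direction, 5 were higher, where 24.5% of all genes were, and 13 were lower, where 27.7% were. The 5 is the low end: 6 to 8 were higher over 10 other settings, and 5 to 9 with 1 library left out. The count of those lower stayed at 12 or 13. Psma8 is 1 of the 13, and since it passed the filter on low counts only through the strains where it is high, nothing is read from its call. Without the 4 libraries named above 20 members were called. The changes were small: the median absolute log2 difference was 0.0889 over the members and 0.2293 over all genes tested. Apart from Psma8 only Psmd9 was called with at least a 1.5-fold difference, where 21.2% of all genes were. The median level was 63.7 CPM over the members and 11.2 CPM over all genes tested. Shares and medians over all genes, here and below, are not matched for level. For Psmd9, Psmd5 and Psmb1 the libraries of the 2 strains did not overlap, where 12.6% of all genes did not. With size factors by DESeq2's method (RLE) in place of the trimmed mean of M values (TMM), 8 members were higher and 13 lower; Psmd3, Psmd4 and Psmd6 have adjusted p between 0.0504 and 0.0561 in the reported fit. Psmd6 falls outside the rule for named genes and is named because its value was seen near the threshold.

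Psmd9 is a chaperone that holds ATPases of the base during assembly; its deposited gene model lies at chr5:123169413-123250131 on the plus strand. It ranged in C57BL/6J from 18.5 to 21.3 CPM (median 20.5), in CAST/EiJ from 11.7 to 14.8 (median 12.9), and in NZO/HlLtJ from 17.1 to 20.1 CPM (median 18.6). All 12 CAST/EiJ libraries lay below all libraries of both other strains, and those of the other strains overlapped. The log2 difference of CAST/EiJ from C57BL/6J was -0.64 (SE 0.0392, edgeR, adjusted p = 1.05e-14). The NZO/HlLtJ level differed from C57BL/6J by -0.13 (SE 0.0387, adjusted p = 0.0107). A long noncoding RNA, Gm26745, runs on the opposite strand and shares 24.7% of the 50-base stretches of Psmd9, and since strandedness is not given in the sources used here the reads of both cannot be told apart. Its own counts were 0.551 CPM in C57BL/6J and 0.830 CPM in CAST/EiJ, where the difference was not called (log2 difference 0.60, adjusted p = 0.146). Whether CAST/EiJ reads were aligned to that strain's own sequence is unknown here, and its part in this and the other CAST/EiJ values was not tested.

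Psmd5, the other chaperone of the base with lower counts, lies at chr2:34849734-34874968 on the minus strand. It ranged in C57BL/6J from 55.3 to 65.2 CPM (median 60.6), in CAST/EiJ from 40.6 to 49.9 (median 43.1) and in NZO/HlLtJ from 49.5 to 59.8 CPM (median 54.4). The CAST/EiJ libraries were all below those of C57BL/6J, and the highest of them overlapped the lowest of NZO/HlLtJ. The log2 difference from C57BL/6J was -0.46 in CAST/EiJ (SE 0.033, adjusted p = 3.85e-13) and -0.15 in NZO/HlLtJ (SE 0.0328, adjusted p = 8.31e-04), by edgeR's test. Psmd5 shares under 1% of its 50-base stretches with other genes (0.385%).

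Psmd10, which binds another ATPase of the base, and the 4 Psmg chaperones, which build the alpha ring, were not called in CAST/EiJ against C57BL/6J. The chaperones summed to 97.5 ± 3.07 CPM (SD, n = 12) in CAST/EiJ and 120.1 ± 4.27 in C57BL/6J. The core summed to 841 ± 40.4 CPM in CAST/EiJ against 861 ± 40.6, and the cap to 1684 ± 102 against 1733 ± 75.7.

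Within the core, the strain difference of Psmb1 and that of Psmb6 had opposite signs. Psmb1 (chr17:15475721-15498276, minus strand) ranged from 57.8 to 75.2 CPM in C57BL/6J (median 69.5), from 78.4 to 96.1 in CAST/EiJ (median 84.0) and from 64.1 to 84.0 in NZO/HlLtJ (median 70.3). Every CAST/EiJ library was above every C57BL/6J library, and 1 library of NZO/HlLtJ, male HFHS 1, reached into the CAST/EiJ range. The log2 difference of CAST/EiJ from C57BL/6J was 0.31 (SE 0.0446, adjusted p = 6.96e-07, edgeR).

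Psmb6 carries the caspase-like activity and lies at chr11:70525367-70527858 on the plus strand. It ranged from 53.0 to 66.7 CPM in C57BL/6J (median 61.6), from 45.4 to 58.2 in CAST/EiJ (median 48.3) and from 54.4 to 67.2 in NZO/HlLtJ (median 61.4). The ranges overlapped, with the CAST/EiJ median below every library of both other strains. The log2 difference of CAST/EiJ from C57BL/6J was -0.28 (SE 0.0483, adjusted p = 1.43e-05, edgeR). Psmb4, a beta subunit that does not cut, was also lower in CAST/EiJ, at 77.7 ± 5.77 against 89.1 ± 6.71 CPM (log2 difference -0.20, adjusted p = 5.85e-04). The other 4 genes of the beta ring were not called.

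In the alpha ring, Psma2 was at 66.6 ± 4.34 CPM in CAST/EiJ and 75.7 ± 4.22 in C57BL/6J (log2 difference -0.18, adjusted p = 9.86e-05, edgeR). Psma1 and Psma5 were lower by smaller amounts. Psma4 was the alpha subunit called higher, 50.6 ± 2.59 against 44.8 ± 2.04 CPM (0.18, adjusted p = 3.02e-04). For Psma5 and Psma4, 49.96% and 14.3% of the 50-base stretches also occur in other genes.

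Few reads were counted for Psma8 in CAST/EiJ. It had 8 to 35 counts in each C57BL/6J library, 10 to 23 in each NZO/HlLtJ library, and 0 to 4 in the CAST/EiJ libraries, 4 of which had 0. In all, 14 counts were found over the 12 CAST/EiJ libraries, against 216 in C57BL/6J and 193 in NZO/HlLtJ. The CAST/EiJ libraries did not overlap those of the other strains. Psma8 passed the filter through C57BL/6J and NZO/HlLtJ alone, so that these counts are a description, with no test. The part of the alignment of CAST/EiJ reads in them was not tested.

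Psmb10 was higher in CAST/EiJ, where it ranged from 12.7 to 17.8 CPM (median 14.7) against 9.61 to 15.2 (median 12.5) in C57BL/6J. The ranges overlapped and the log2 difference was 0.30 (SE 0.0665, adjusted p = 3.94e-04).

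All 6 ATPases of the base had fitted differences below 0 in CAST/EiJ, where 48.7% of all genes were above 0. Of the 6, 4 were called, where 52.2% of all genes were. Psmc3 had the largest difference of the ATPases, with a range of 84.7 to 110.6 CPM (median 96.8) in CAST/EiJ and 107.4 to 126.7 CPM (median 113.2) in C57BL/6J. The groups overlapped, and the log2 difference was -0.25 (SE 0.0439, adjusted p = 1.43e-05, edgeR). Psmc6 (-0.16), Psmc4 (-0.15) and Psmc5 (-0.14) were also called, while Psmc1 (-0.03) and Psmc2 (-0.02) were not. None of the 3 other base subunits was called, and the lid had 1 called gene, Psmd11, at 72.9 ± 4.01 CPM in CAST/EiJ and 68.7 ± 2.59 in C57BL/6J (0.08, adjusted p = 0.0137). A noncoding transcript that shares 7.64% of the 50-base stretches of Psmd11, A730017L22Rik, was at 0.428 CPM in CAST/EiJ and 9.36 CPM in C57BL/6J. Reads of the 2 genes from the shared stretches cannot be told apart, and their part in the Psmd11 difference was not tested.

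Of the activators and inhibitors, Psme2, a subunit of the interferon-induced activator, was lower in CAST/EiJ (11.0 ± 0.936 against 12.8 ± 0.697 CPM, log2 difference -0.22, adjusted p = 4.64e-03). Its near copy Psme2b, which shares 28.3% of its 50-base stretches, was also lower, at 0.00274 CPM against 0.448 CPM. Psmf1, an inhibitor of the core, was higher (36.5 ± 2.57 against 33.4 ± 2.24 CPM, log2 difference 0.13, adjusted p = 6.30e-03). Psme1, the partner of Psme2, and the nuclear activators Psme3 and Psme4 were not called.

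The 8 oligodendrocyte markers summed to between 6230 and 12254 CPM in CAST/EiJ and between 12949 and 16794 CPM in C57BL/6J, and 7 of the 8 were called lower in CAST/EiJ. Of 9 microglia markers 5 were called lower, and the sums ran from 149 to 241 CPM in CAST/EiJ and from 224 to 288 CPM in C57BL/6J. Every marker of both lists was detected in every library. Of the 6 red blood cell markers 4 were called lower and 0 higher. Their sums ran from 210 to 2540 CPM in CAST/EiJ and from 384 to 3229 CPM in C57BL/6J. The part of the markers of these 3 lists in the strain differences was not tested. In bulk tissue, fewer cells of a type and less RNA per cell cannot be told apart. Without the 3 libraries low in Hox genes, without these and the library with pituitary hormone genes, and with a Hox score as a covariate, no call was lost in this comparison for the members the naming rule covers.

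**Figure D2:**
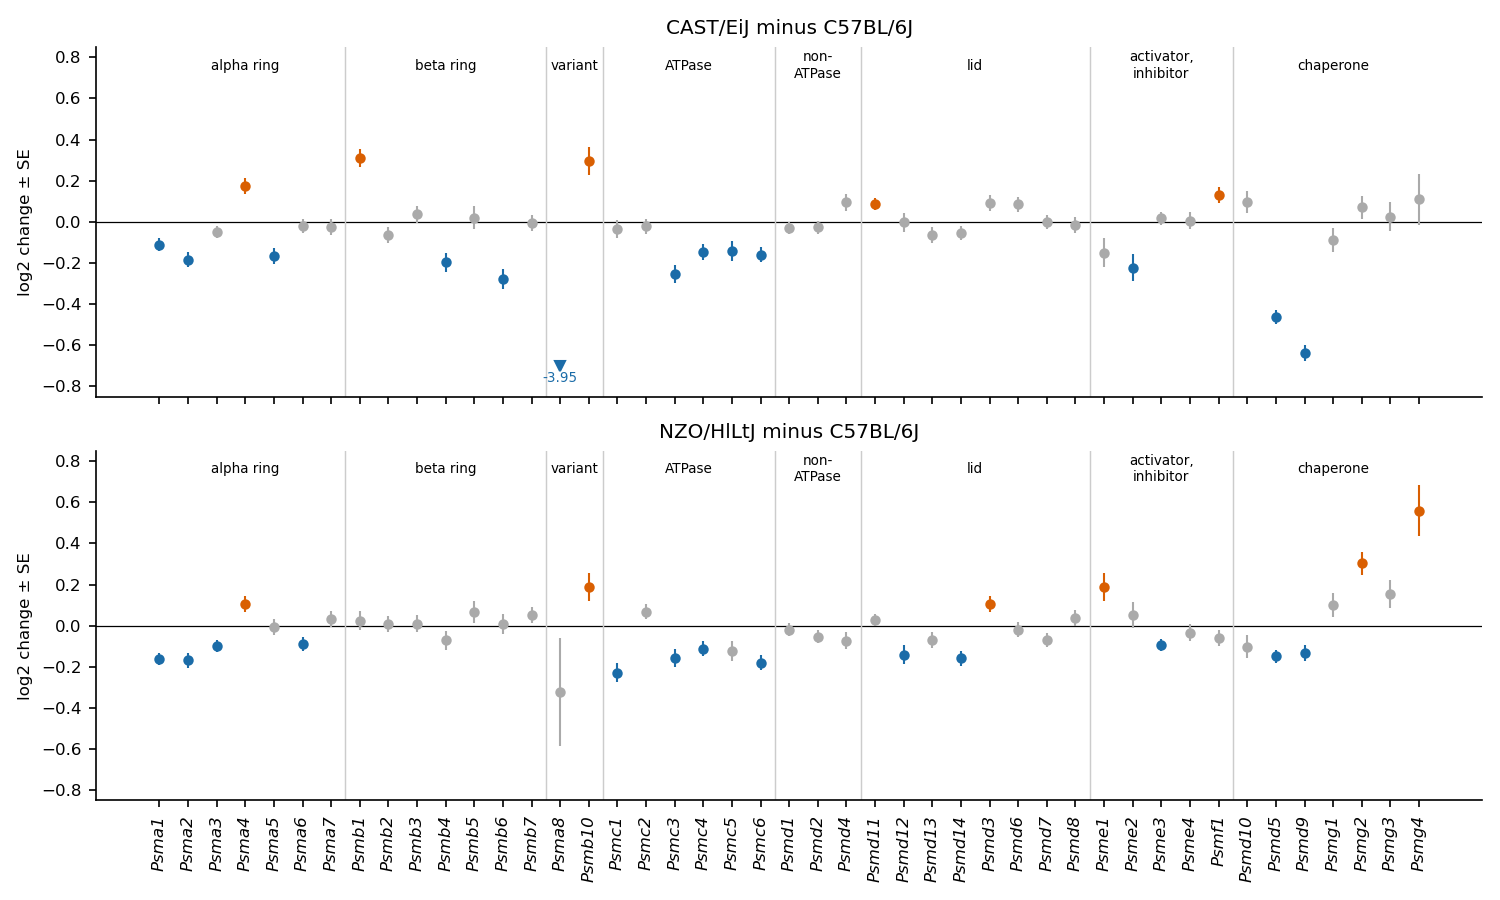
Log2 difference of each tested member in CAST/EiJ (top) and NZO/HlLtJ (bottom) from C57BL/6J, with its SE, by role; orange marks called higher, blue called lower, grey not called. Psma8 in CAST/EiJ lies off the axis and is drawn as a triangle; Psmd9 (-0.64) and Psmd5 (-0.46) are the lowest of the rest, and both panels share the C57BL/6J libraries.

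The second comparison was between NZO/HlLtJ and C57BL/6J. It shares its C57BL/6J libraries with the first, so that likeness between the 2 sets of differences is not read as a result. In NZO/HlLtJ the chaperones of the alpha ring Psmg4 and Psmg2 were higher, and ATPases of the base and alpha subunits were lower by small amounts. Of the 45 members 19 were called (42.2%), where 23.8% of all genes were called. These 2 shares are not matched for level: 81.8% of the genes tested lay below the members' median CPM. By direction 6 were higher, where 11.7% of all genes were, and 13 lower, where 12.2% were. None was called with a 1.5-fold difference, where 7.85% of all genes were, and for no member did the libraries of the 2 strains fail to overlap, where 3.68% of all genes did. The median absolute log2 difference was 0.0941 over the members and 0.1258 over all genes.

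This comparison moved most with the libraries that stand apart. Without the 3 low in Hox genes 17 members were called, and without these and NZO/HlLtJ male control 1 there were 10, 4 higher and 6 lower; 4345 of all genes were then called, against 4792 with all libraries. In that fit Psmc3, Psmd12, Psme1, Psma4, Psmd3 and Psmb10 lost their call (adjusted p 0.052 to 0.368, edgeR). The 6 called lower were Psmc1, Psmc6, Psma1, Psma2, Psmd5 and Psmd14. Psmd9, Psmc4, Psma3, Psma6 and Psme3, called lower with all libraries, were therefore not called either. The 8 oligodendrocyte markers summed to 9415 to 18055 CPM in NZO/HlLtJ and 12949 to 16794 CPM in C57BL/6J (0 called higher, 1 lower). The 9 microglia markers summed to 203 to 272 and 224 to 288 CPM (1 higher, 4 lower) and the 6 red blood cell markers to 540 to 3184 and 384 to 3229 CPM (1 higher, 0 lower). Their part in the differences was not tested.

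Psmg4 (chr13:34162964-34178172, plus strand) had the largest called difference. It ranged from 1.56 to 3.17 CPM in C57BL/6J (median 2.40), from 1.88 to 3.25 in CAST/EiJ (median 2.47) and from 2.06 to 4.42 in NZO/HlLtJ (median 3.35). The NZO/HlLtJ libraries overlapped those of both other strains. The log2 difference of NZO/HlLtJ from C57BL/6J was 0.56 (SE 0.1233, adjusted p = 8.61e-04, edgeR).

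Psmg2, which acts on the same ring, ranged in NZO/HlLtJ from 9.86 to 14.2 CPM (median 12.4) and in C57BL/6J from 8.65 to 12.2 CPM (median 9.72). The ranges overlapped, and the log2 difference was 0.30 (SE 0.0567, adjusted p = 1.25e-04). Psmg1 and Psmg3 were not called. The 2 base chaperones Psmd5 and Psmd9 were lower in NZO/HlLtJ, by the smaller amounts given above.

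Among the ATPases, Psmc1 ranged from 104.4 to 141.7 CPM (median 121.5) in NZO/HlLtJ and from 127.2 to 162.7 CPM (median 140.8) in C57BL/6J. The groups overlapped and the log2 difference was -0.23 (SE 0.0459, adjusted p = 2.78e-04, edgeR). Psmc6 (-0.18, adjusted p = 4.10e-04), Psmc3 (-0.16, adjusted p = 0.0075) and Psmc4 (-0.11, adjusted p = 0.0321) were called as well. Psmc5, at -0.12, was not (adjusted p = 0.0715).

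In the alpha ring Psma1 was at 47.0 ± 2.54 CPM in NZO/HlLtJ and 52.6 ± 2.30 in C57BL/6J, a log2 difference of -0.16 with the smallest p of any member (adjusted p = 9.71e-05, edgeR). Psma2 followed with -0.17 (adjusted p = 7.38e-04), and Psma3 (-0.10) and Psma6 (-0.09) were also called lower. Of the beta ring, no gene was called. In the lid, Psmd14, the deubiquitinase whose promoter is printed above, was at 61.8 ± 4.96 CPM in NZO/HlLtJ and 68.9 ± 3.60 in C57BL/6J (-0.16, adjusted p = 8.66e-04). Psmd12 was at 83.4 ± 7.02 and 91.9 ± 6.09 CPM (-0.14, adjusted p = 0.0221); that call was lost without C57BL/6J female control 3 (adjusted p = 0.051) or male control 3 (0.0538).

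The other calls towards higher levels in NZO/HlLtJ were less firm. Psme1 ranged from 15.9 to 24.3 CPM (median 19.0) in NZO/HlLtJ and from 14.7 to 22.2 CPM (median 16.7) in C57BL/6J, with a log2 difference of 0.19 (SE 0.0694, adjusted p = 0.0483, edgeR). That call was lost under 6 of 10 other settings (adjusted p 0.0506 to 0.368) and without any 1 of 24 of the 36 libraries (up to 0.113). Without any 1 of 14 libraries Psma4 was not called, of 15 Psmd3, and of 10 Psmb10. So 2 members were called higher without NZO/HlLtJ male control 1 or male HFHS 1, and likewise without female HFHS 1 or male control 2 of C57BL/6J, in place of 6.

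The third comparison set CAST/EiJ against NZO/HlLtJ and uses the libraries of both earlier comparisons again. Of the 45 members 21 were called (46.7%), where 49.8% of all genes were, and without the 4 libraries that stand apart 19 were; 9 were higher in CAST/EiJ, where 22.6% of all genes were, and 12 lower, where 27.2% were. Psmd9 (-0.51, adjusted p = 2.73e-12, edgeR), Psmd5 (-0.31, adjusted p = 2.12e-09) and Psmb6 (-0.29, adjusted p = 9.41e-06) were lower in CAST/EiJ, and Psmb1 was higher (0.29, adjusted p = 2.88e-06). For Psmd9 the libraries of the 2 strains did not overlap, where 10.5% of all genes did not. The 12 calls towards lower levels include Psma8, which passed the filter through NZO/HlLtJ and C57BL/6J alone. In this comparison 7 of 8 oligodendrocyte, 4 of 9 microglia and 4 of 6 red blood cell markers were called lower in CAST/EiJ and none higher. The oligodendrocyte sums ran from 6230 to 12254 CPM in CAST/EiJ and from 9415 to 18055 CPM in NZO/HlLtJ, and their part was not tested.

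Both subunits of the interferon-induced activator were lower in CAST/EiJ than in NZO/HlLtJ. Psme1 ranged from 13.2 to 19.96 CPM (median 15.2) in CAST/EiJ, with NZO/HlLtJ as given above, and the log2 difference was -0.34 (SE 0.0695, adjusted p = 1.53e-04). Psme2 had a median of 11.0 CPM in CAST/EiJ and 12.8 CPM in NZO/HlLtJ (-0.27, adjusted p = 6.96e-04). In the NZO/HlLtJ library with pituitary hormone genes, male control 1, Psme2 was at 19.4 CPM, against 11.6 to 13.8 CPM in the other 5 of its strain and diet. Without this library the log2 difference of Psme2 was -0.20 (adjusted p = 0.00197) and that of Psme1 -0.29 (adjusted p = 8.28e-04); without the 3 low in Hox genes as well they were -0.20 and -0.31 (adjusted p = 0.0088 and 9.38e-04). The inhibitor Psmf1 (0.19, adjusted p = 1.75e-04), the ATPase Psmc1 (0.19), the ubiquitin receptor Psmd4 (0.17), the chaperone Psmd10 (0.20) and the lid subunits Psmd12 (0.14) and Psmd14 (0.10) were higher in CAST/EiJ. Psmg4 (-0.45), Psmg2 (-0.23) and Psmg1 (-0.19) were lower. With an additive sex term in place of 12 group means, 15 members were called higher, and 14 or 15 were without NZO/HlLtJ male control 2 or male HFHS 1.

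By role, the chaperones had 1 called higher and 5 lower of 7 between CAST/EiJ and NZO/HlLtJ, where 49.8% of all genes were called. Against C57BL/6J the chaperones had 0 and 2 in CAST/EiJ, where 52.2% were, and 2 and 2 in NZO/HlLtJ, where 23.8% were. Activators and inhibitors had 2 and 2 of 5 between CAST/EiJ and NZO/HlLtJ. Of the base subunits that are not ATPases 0 of 3 were called in either strain against C57BL/6J, and 1, Psmd4, between CAST/EiJ and NZO/HlLtJ. Psmd1 had 149, 147 and 148 CPM in C57BL/6J, CAST/EiJ and NZO/HlLtJ, and Psmd2 had 231, 227 and 223 CPM.

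**Figure D3:**
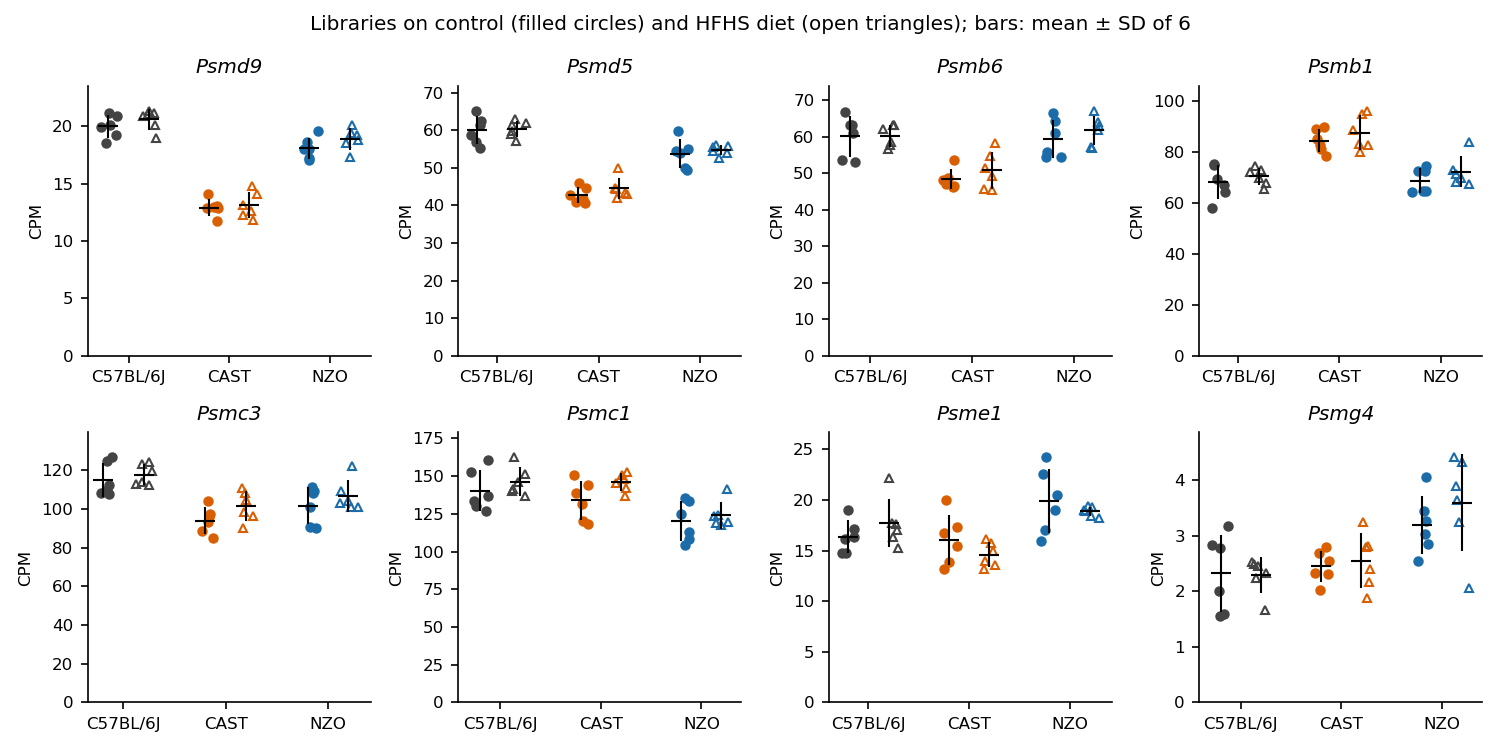
CPM in each library for 8 members, by strain (CAST, CAST/EiJ; NZO, NZO/HlLtJ), on control (filled circles) and HFHS diet (open triangles), with the mean and SD of 6. For Psmd9 and Psmd5 the CAST/EiJ points lie below those of C57BL/6J on both diets and for Psmb1 above them, while Psme1 and Psmg4 overlap between all strains.

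The diet comparison was made within each strain, HFHS minus control, over both sexes. No member was called in any strain: in C57BL/6J 0% of all genes were called, in CAST/EiJ 0.269% and in NZO/HlLtJ 0.0497%. At an unadjusted p under 0.05 by edgeR, 0 members passed in C57BL/6J (2.61% of all genes), 9 in CAST/EiJ (18.5%) and 0 in NZO/HlLtJ (10%). The fitted differences were small and mostly above 0: 38 of 45 in C57BL/6J, where 51% of all genes were above 0, 36 in CAST/EiJ (49.5%) and 33 in NZO/HlLtJ (50%). Of these, 26 members were above 0 in all 3 strains, where 16.9% of all genes were, and 2, Psmd11 and Psme4, below 0 in all 3, where 15.7% were. Members of 1 complex are not independent, so that no test is given for these counts. The median log2 difference of the members was 0.0351 in C57BL/6J, 0.0601 in CAST/EiJ and 0.0447 in NZO/HlLtJ, and that of all genes was between -0.0011 and 0.0023. Over the other settings these medians ran from 0.007 to 0.0351, from -0.0005 to 0.0618 and from 0.0098 to 0.0477, with the lowest under the Hox covariate in C57BL/6J and CAST/EiJ and without the 4 libraries that stand apart in NZO/HlLtJ. Leaving out 1 library they ran from 0.0108 to 0.0452, from 0.02 to 0.0747 and from 0.0095 to 0.0746.

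In C57BL/6J and NZO/HlLtJ, the Hox genes and the red blood cell markers each had fitted diet differences of 1 sign, without a call. All 18 Hox genes had fitted differences above 0 in C57BL/6J (median 0.68) and in NZO/HlLtJ (median 1.14), and 0 were called. Their sums ran in C57BL/6J from 28.9 to 231 CPM on control and from 33.7 to 281 CPM on HFHS, and in NZO/HlLtJ from 2.33 to 150 and from 26.96 to 353 CPM. All 6 red blood cell markers were below 0 (medians -0.90 and -1.15, 0 called), with sums of 435 to 3229 and 384 to 2914 CPM in C57BL/6J and 1017 to 3184 and 540 to 1216 CPM in NZO/HlLtJ. The groups overlapped in each of these sums, and the CAST/EiJ values are given below. Other markers of region were not of 1 sign over both strains. Of the 12 cerebellar markers 0 were above 0 in C57BL/6J and 6 in NZO/HlLtJ. Of the 7 choroid plexus markers 7 and 0 were, and 0 of either list were called. The part of these markers in the signs above was not tested.

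The 95% intervals are for each member on its own, and for the difference between HFHS and control libraries, whatever its source. Leaving out Psma8 for its few counts, every member's interval lay within -0.38 to 0.35 in C57BL/6J, -0.34 to 0.41 in CAST/EiJ and -0.29 to 0.52 in NZO/HlLtJ on the log2 scale, and Psmg4 set 4 of these 6 bounds. A median interval reached 0.112 to either side of its estimate.

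By role, the ATPases of the base had a median diet difference of 0.0314 in C57BL/6J, 0.1199 in CAST/EiJ and 0.0734 in NZO/HlLtJ, with all 6 above 0 in every strain. The beta ring had 0.0456, 0.0601 and 0.0502, with all 7 above 0 in every strain. Activators and inhibitors had medians below 0: -0.0012, -0.0647 and -0.0532. The members with the smallest p in C57BL/6J were Psma7 (0.10), Psma1 (0.07) and Psmb10 (0.15), and in NZO/HlLtJ Psmc6 (0.10), Psmd14 (0.09) and Psmd2 (0.08); none of these 6 was called (adjusted p 1 in C57BL/6J, 0.533 to 0.578 in NZO/HlLtJ).

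**Figure D4:**
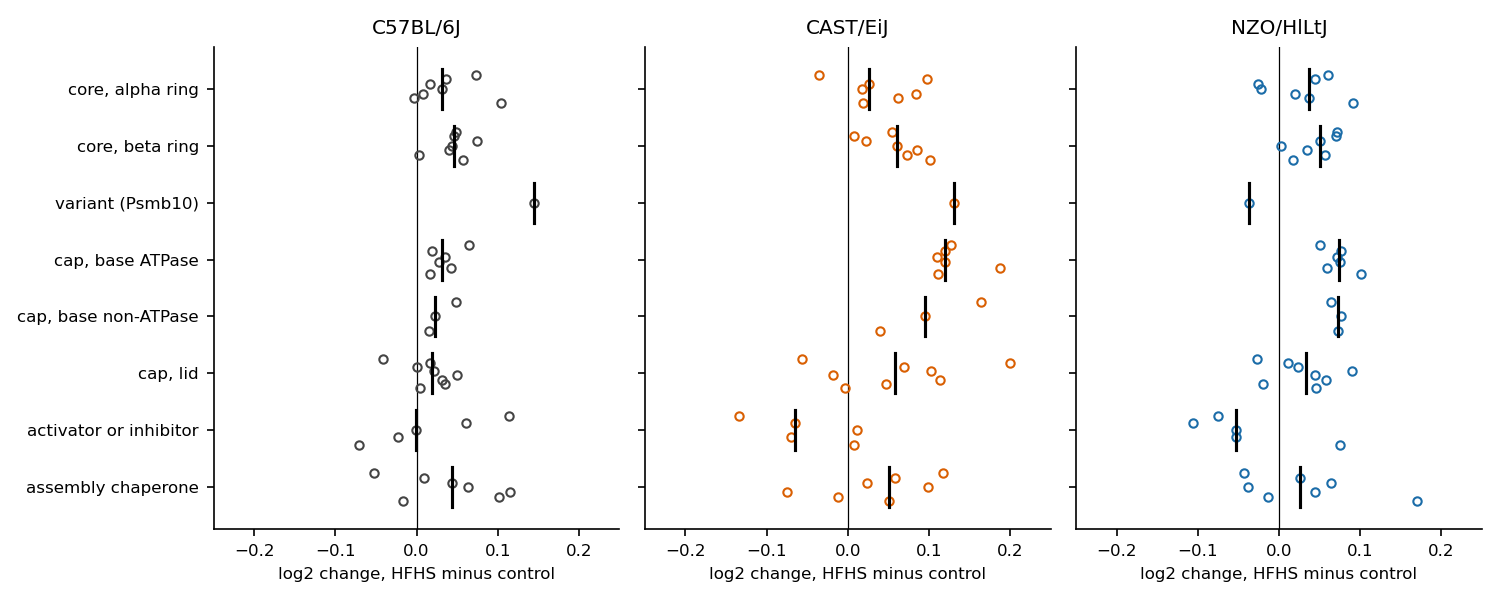
Log2 difference between HFHS and control for each tested member but Psma8, in each strain, by role; the black line is the median of the role. Most circles of the core and the cap lie to the right of 0 and most of the activators to the left, and none was called.

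In CAST/EiJ the 3 members with the smallest p were subunits of the cap. The scaffold subunit Psmd1 (chr1:86064387-86139151, plus strand) ranged from 125.2 to 151.1 CPM (median 139.8) on control diet and from 147.4 to 158.7 CPM (median 156.8) on HFHS. The groups overlapped in 1 control library, and the log2 difference was 0.16 (SE 0.0436, adjusted p = 0.0673, edgeR).

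The lid subunit Psmd12 (chr11:107479484-107504362, plus strand) was at 71.8, 91.7 and 70.1 CPM in the male and 94.0, 93.9 and 93.6 CPM in the female control libraries, and on HFHS it ranged from 94.1 to 102.6 CPM (median 97.8). The groups did not overlap, as was the case for 0.791% of all genes, though 4 of the control libraries lay within 3 CPM of the lowest HFHS library. The log2 difference was 0.20 (SE 0.064, adjusted p = 0.105). The ATPase Psmc5 ranged from 132.5 to 182.1 CPM (median 174.7) on control and from 175.7 to 198.8 CPM (median 188.8) on HFHS (0.19, SE 0.0702, adjusted p = 0.146).

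The 2 lowest control libraries for Psmd1, Psmd12 and Psmc5 were male 1 and male 3, the CAST/EiJ libraries low in Hox genes. The 18 Hox genes summed to between 0.62 and 238 CPM in the 6 CAST/EiJ control libraries and between 226 and 320 CPM in the 6 on HFHS; all 18 had fitted differences above 0, and 0 were called. The 12 cerebellar markers summed to 178 to 2983 CPM on control and 211 to 1053 CPM on HFHS (0 called), and the 8 oligodendrocyte markers to 6230 to 11563 CPM and 10664 to 12254 CPM (0 called). The 6 red blood cell markers were at 655 to 2540 CPM on control and 210 to 385 CPM on HFHS, without overlap, and 5 were called lower.

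Without the 3 libraries low in Hox genes, the log2 differences in CAST/EiJ were 0.13 for Psmd1, 0.08 for Psmd12 and 0.09 for Psmc5. The male control group of CAST/EiJ is then replicate 2 alone, so no p-value is given. With the mean log2 level of the Hox genes as a covariate they were 0.06, 0.02 and 0.0017 (adjusted p 1, edgeR), and the median of the 45 members was -0.0005. The Hox sums of the diets hardly overlapped in CAST/EiJ (0.62 to 238 CPM on control, 226 to 320 CPM on HFHS). Diet and Hox content therefore cannot be told apart by either fit. The part of the red blood cell and cerebellar markers in the diet differences was not tested. Without CAST/EiJ male control 2, all 3 were called (adjusted p 0.0125, 0.00686 and 0.0288), and Psmd1 was called by limma on the deposited log2 values (0.0383), by DESeq2 (0.00826), and without NZO/HlLtJ male control 2 (0.0493) or 3 (0.0429).

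**Figure D5:**
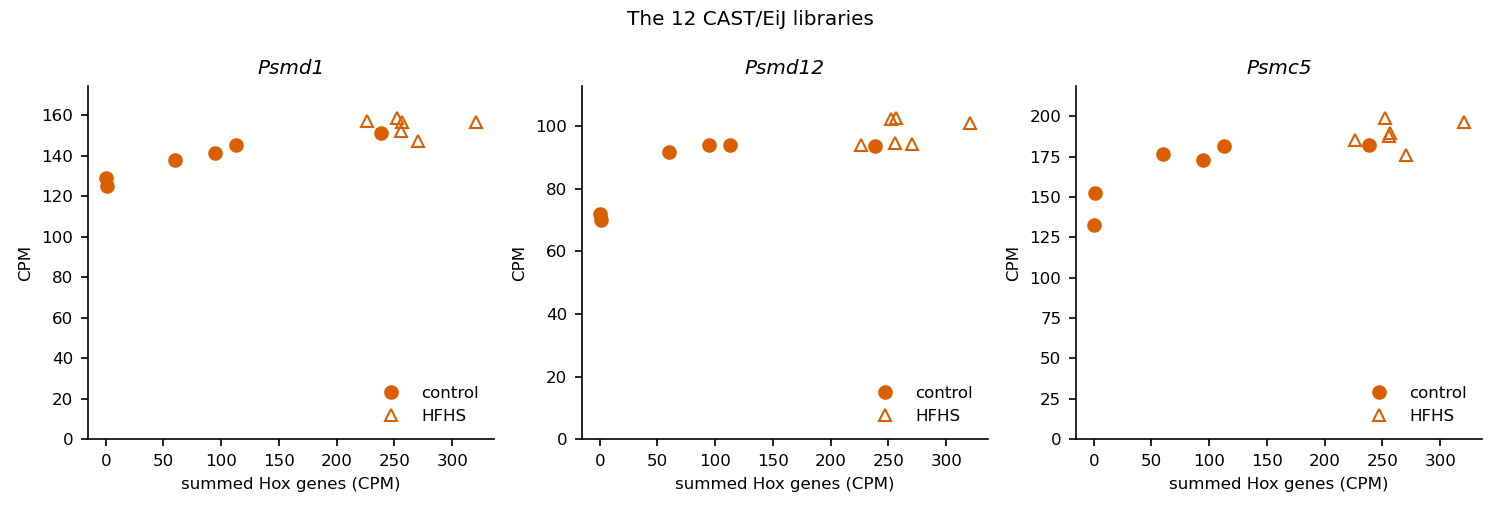
CPM of Psmd1, Psmd12 and Psmc5 in the 12 CAST/EiJ libraries against the summed CPM of the Hox genes, on control (filled circles) and HFHS diet (open triangles). The 2 control libraries with Hox sums near 0 hold the lowest values of all 3 genes, and the other 4 control libraries lie closer to the HFHS libraries.

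Whether the diet acted differently between strains was tested by the interaction. No member was called, and 0% of all genes were; at an unadjusted p under 0.05 there were 0 members and 8.58% of all genes. The smallest adjusted p were those of Psmd12 (0.616), Psmd1 (0.666) and Psma1 (0.682). Between the sexes 0 members were called by edgeR, where 0.0796% of all genes were, and 1 had an unadjusted p under 0.05, where 5.09% of all genes had: Psmc1, with a log2 difference of male minus female of -0.08 (adjusted p = 0.975).

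Genes that control or assist the proteasome were described from a list of 16 tested genes. Between CAST/EiJ and C57BL/6J 3 were called higher and 4 lower (edgeR), between NZO/HlLtJ and C57BL/6J 1 and 3, between CAST/EiJ and NZO/HlLtJ 2 and 4, and by diet 0 in each strain. Of all genes 52.2%, 23.8% and 49.8% were called in these strain comparisons, in the order given. Nfe2l1 was at 413 CPM in CAST/EiJ, 408 in NZO/HlLtJ and 419 in C57BL/6J, and was not called in either strain (log2 differences -0.03 and -0.04). Pomp, the chaperone of the beta ring, and Adrm1, a ubiquitin receptor of the cap that the Psm symbols do not cover, were not called either (Pomp -0.02 and -0.10, Adrm1 0.09 and 0.08). Fbxo7, a ubiquitin ligase adaptor that binds Psmf1, was at 59.3 CPM in CAST/EiJ, 69.2 in NZO/HlLtJ and 75.6 in C57BL/6J. Its log2 difference of CAST/EiJ from C57BL/6J was -0.36 (adjusted p = 1.85e-08, edgeR). The libraries of these strains did not overlap, where 12.6% of all genes did not. Txnl1, a thioredoxin bound to the cap, was higher in CAST/EiJ than in C57BL/6J (0.19, adjusted p = 1.36e-04). Ddi2, the protease that activates Nfe2l1, was higher in both strains (0.16 and 0.11) and Nfe2l2, a related transcription factor, was lower in both (-0.20 and -0.14). Both strains were set against the same C57BL/6J libraries, so that this likeness is not read as a result.

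Of 17 tested ubiquitin and shuttle factor genes, 2 were called higher and 6 lower in CAST/EiJ against C57BL/6J, 1 and 4 in NZO/HlLtJ, 2 and 4 between CAST/EiJ and NZO/HlLtJ, and 0 by diet. The shares of all genes called in these strain comparisons were 52.2%, 23.8% and 49.8%. Ubb, a gene that encodes a ubiquitin chain, was at 889 CPM in CAST/EiJ and 1063 CPM in C57BL/6J (-0.26, adjusted p = 5.27e-07). Ufd1l, which helps to extract substrates from membranes, was lower in CAST/EiJ (-0.28, adjusted p = 5.99e-09, edgeR). The shuttle factor Rad23b was lower in CAST/EiJ and in NZO/HlLtJ (-0.18 and -0.17), both against the same C57BL/6J libraries.

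Interferon induces the activator Psme1 and Psme2 and the variant Psmb10, so 12 genes of the interferon response are given beside them. In CAST/EiJ against C57BL/6J 10 were called lower and 0 higher: Ifit3 was at 2.10 against 10.3 CPM (-2.30, adjusted p = 8.41e-16, edgeR) and Irf7 at 0.554 against 2.63 CPM (-2.24, adjusted p = 7.56e-16). In NZO/HlLtJ against C57BL/6J 3 were lower and 1 higher, and in CAST/EiJ against NZO/HlLtJ 10 lower and 1 higher. By diet 0 were called. Of all genes 27.7%, 12.2% and 27.2% were called lower in these strain comparisons, in the order given, and 24.5%, 11.7% and 22.6% higher. In the same comparison of CAST/EiJ with C57BL/6J, Psme2 was lower, Psme1 was not called and Psmb10 was higher.

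The 13 heat shock genes described here mostly encode chaperones that can be raised when protein degradation fails. On HFHS in NZO/HlLtJ 3 were called lower, where 0.0398% of all genes were: Hspa1b, Hspa1a and Hsph1. Hspa1b ranged from 24.03 to 113 CPM (median 36.3) on control and from 3.26 to 5.67 CPM (median 3.56) on HFHS (log2 difference -3.70, adjusted p = 0.0138, edgeR), and Hspa1a from 26.98 to 108 CPM (median 32.9) and from 8.54 to 10.7 CPM (median 9.05; -2.44, adjusted p = 0.0138). The groups did not overlap for either, where 0.985% of all genes did not. The 4 control libraries that do not stand apart were at 24.03 to 113 and 30.1 to 104 CPM.

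All 13 heat shock genes had fitted differences below 0 with and without the control libraries that stand apart, while the count of calls moved with them. Without NZO/HlLtJ male control 1, the library with pituitary hormone genes, Hspa1b (-3.60) and Hspa1a (-2.30) were called (adjusted p = 0.0436 for both, edgeR) and Hsph1 was not (-0.55, adjusted p = 0.10), where 0.00978% of all genes were called lower. Without the 3 libraries low in Hox genes 11 of the 13 were called lower, where 0.577% of all genes were, and without all 4 libraries 8 were, where 0.119% were. No proteasome member was called in that comparison under any of these settings. No heat shock gene was called by diet in the other strains.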

How the data were processed

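Expected counts per gene, estimated counts that need not be whole, were deposited by the authors for 36 libraries, with a table of log2 values after a variance-stabilising transformation. Per the submitters' processing notes, the build was GRCm38, which is the C57BL/6J sequence, and DESeq2 was used. Not given in the sources used here are the aligner, the counter, the use of strand, and whether reads of the other strains were aligned to their own sequence.

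The counts were rounded and tested with edgeR 4.0.16 (R 4.3.3): TMM, filterByExpr (minimum count 10, total 15), 12 group means and a robust quasi-likelihood fit with 24 residual degrees of freedom. Differences are log2 values with SE, levels are CPM. P-values were adjusted by Benjamini-Hochberg over 20108 genes. Alternatives were other scaling, filter and spread settings, an additive sex term, libraries or a covariate by Hox genes, the compared strains alone, limma 3.58.1, DESeq2 1.42.0, and leaving out each library. The fits without robust spread and without all 4 libraries that stand apart were chosen after seeing the data. Scripts were tested on simulated data.

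Members and lists were chosen with earlier results of these data known. Named members are the called ones with the largest differences (up to 8 in each direction), or else the 3 with the smallest p, and the highest and lowest per length of each role. Psma3, Psma5, Psmd6, Psme4 and Psmg3, and the tissue marker Dbh, were named after their values were seen. Gene models and shared 50-base stretches are from gencode vM21 (GRCm38): 36 of 46 members lie within 1 base of the deposited coordinates.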

Additional observations from a re-analysis of the deposited data

Results flagged for a closer look

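Groups of 6 libraries (1 strain on 1 diet) were taken for 31 named members and for the sums by part and over all members. For independent groups Dixon's test singles out a library in about 1 in 20 by chance, but these groups share libraries and are not independent. Of the 216 groups, 18 (8.33%) had a library that stood apart from the other 5 by that test. The library NZO/HlLtJ male HFHS 1 was the highest in 8 of them: the sum of all members was 3187 CPM there (2704 to 2883 in the others), that of the core 963.2 CPM (804.4 to 854.6), Psmd2 253.5 CPM (215.6 to 228.8), Psmc1 141.7 (117.7 to 124.1), Psmb4 98.7 (79.4 to 84.3), Psmb1 84.0 (67.2 to 73.0), Psmc4 78.5 (67.1 to 71.2) and Psma7 63.2 (52.4 to 55.7). In CAST/EiJ female control 1, Psma2 was high at 71.6 CPM (60.0 to 64.1) and Psmb6 at 53.7 (46.2 to 48.6).

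Psme2 was high in NZO/HlLtJ male control 1, the library with pituitary hormone genes, at 19.4 CPM (11.6 to 13.8), and in CAST/EiJ male control 1, at 12.5 (10.8 to 11.2). Psme1 was high in C57BL/6J female HFHS 2 (22.2 CPM, others 15.3 to 17.7) and Psmd5 in CAST/EiJ female HFHS 3 (49.9 CPM, others 42.0 to 44.7). Low values were those of Psma4 in CAST/EiJ male HFHS 1 (46.0 CPM, others 50.7 to 52.9), Psmd11 in C57BL/6J female HFHS 3 (62.0, others 68.3 to 69.7), Psmd10 in NZO/HlLtJ female HFHS 2 (8.94, others 11.9 to 12.6) and Psmg4 in C57BL/6J female HFHS 1 (1.66, others 2.23 to 2.53).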

How the results depend on the processing

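No paired analysis was possible because the labels carry no replicate numbers that tie libraries of different groups. The count of members called lay between 19 and 21 over 10 other settings for CAST/EiJ minus C57BL/6J, 10 and 19 for NZO/HlLtJ minus C57BL/6J (10 without the 4 libraries that stand apart, the cause was not tested), and 19 and 26 for CAST/EiJ minus NZO/HlLtJ; leaving out 1 library it lay between 18 and 22, 13 and 19, and 19 and 25. Members called higher in CAST/EiJ than in C57BL/6J ranged from 5 to 9, and in NZO/HlLtJ than in C57BL/6J from 2 to 7. That last count was 3 without C57BL/6J female control 1, male control 3 or male HFHS 3, NZO/HlLtJ female control 1 or female HFHS 1, 2 or 3, or CAST/EiJ male control 3. The median log2 difference of the members changed sign between settings for CAST/EiJ against both other strains (-0.0268 to 0.0111 and -0.0281 to 0.0055). For HFHS minus control in CAST/EiJ, the count of members called was 1 with limma on the deposited log2 values, 1 with DESeq2, and 0 to 3 when 1 library was left out (3 without CAST/EiJ male control 2, and 1 without NZO/HlLtJ male control 2 or 3); the cause was not tested. It was 0 under the other settings, and in the other diet, interaction and sex comparisons it was 0 under all 9 other settings and all 36 omissions. Of the values of named members under the alternatives, 2434 kept their direction and side of the threshold, 77 lost and 7 gained a call. Depth limits Psma8 and Psmb11, with at most 35 counts in a library.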
